A study of Homo sapiens with 24 samples.

Results

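Heat shock proteins and chaperones were followed through the Ago2 binding sites on their mRNAs in cells of the 293S line, which stems from human embryonic kidney. The members were the Ago2 CLIP peaks annotated to genes of the HSPA, HSPB, HSPD, HSPE, HSPH, HSP90, DNAJA, DNAJB, DNAJC, CCT and BAG families, together with 6 named co-chaperones or folding factors and the heat shock factors HSF1 and HSF2. They numbered 188 of the 24041 peaks in the table and lay in 48 of its 6088 genes. Of the 96 protein-coding symbols in RefSeq that satisfy the same naming rule, 48 had a peak and 48 had no row in the table analysed here. Those without a row included all of the small heat shock proteins (HSPB genes), HSPE1, FKBP4, SERPINH1, BAG3 and HSF1. Members were picked by gene name, with earlier results of these data known. Not all of them are chaperones, since HSF2 is a transcription factor and CACYBP a calcyclin-binding adaptor of ubiquitin ligases.

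Cells treated with sodium arsenite at 1 mM for 30 min were compared with untreated cells of the same line. Both arms had 4 biological replicates in each of 3 kinds of library, giving 24 samples: Ago2 CLIP of mRNA fragments, RNA-seq of the same cells, and a second CLIP fraction, the LO band, that measured miRNAs. CLIP crosslinks a protein to the RNA it touches and sequences the fragments that come down with it, here with Ago2, an Argonaute protein that miRNAs guide to target mRNAs. The peak table holds 1 log average and 1 log ratio (arsenite over untreated) of normalized CLIP signal per peak over all replicates. All peak values below are the authors' own. No value of a single sample was in the tables used, so the spread between replicates and the sequencing depth are unknown, and no test of arsenite against untreated cells could be run on any peak. The log base and the normalizer are not stated, so log ratios were not turned into folds, and a difference in Ago2 occupancy and a difference in RNA abundance cannot be told apart here. RNA-seq values were not analysed here.

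Heat shock proteins are chaperones that bind unfolded protein. Hsp70 proteins hold and release client chains in an ATP cycle that J-domain proteins start. Nucleotide exchange factors such as Hsp110 and some BAG proteins reset that cycle. Hsp90, with its own co-chaperones, finishes the folding of kinases and receptors, and the barrel-shaped chaperonins fold proteins such as actin and tubulin in the cytosol and imported proteins in mitochondria. Arsenite binds protein thiols, damages protein folding and activates the heat shock transcription factors, and it also stops most translation and drives mRNAs into stress granules.

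The peaks of these genes carried matches to the seeds of 25 of the 50 miRNA families that the authors listed. A miRNA finds its targets mainly through its seed, bases 2 to 8 from its 5′ end. The mature sequences of the most abundant member of 7 families are printed because chaperone sites described below match them. They are from RefSeq (GRCh38.p14), written 5′ to 3′ with the seed in capitals.
miR-16-5p: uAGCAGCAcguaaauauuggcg
miR-92a-3p: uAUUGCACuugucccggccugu
miR-17-5p: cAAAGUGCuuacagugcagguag
miR-26a-5p: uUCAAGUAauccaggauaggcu
miR-338-3p: uCCAGCAUcagugauuuuguug
miR-301a-3p: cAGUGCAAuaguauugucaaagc
miR-222-3p: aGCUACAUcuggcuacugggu
The 7-base sites that pair with these seeds read UGCUGCU for miR-16-5p, GUGCAAU for miR-92a-3p, GCACUUU for miR-17-5p, UACUUGA for miR-26a-5p and AUGCUGG for miR-338-3p. Those of miR-301a-3p and miR-222-3p read UUGCACU and AUGUAGC. The sites of miR-16-5p and miR-338-3p share a run of 5 bases, UGCUG, and those of miR-17-5p and miR-301a-3p share GCACU. Where inside a peak each site lies is not given in the table.

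Over all 188 chaperone peaks the median log ratio was 0.83, against 0.65 over all 24041 peaks of the table. A log ratio above 0, meaning more normalized Ago2 signal with arsenite, was listed for 140 chaperone peaks or 74.5% (Wilson 95% interval over peaks 67.8 to 80.2%), where the share over all peaks was 70.3%. A log ratio over 1, the size used here in place of a test, was reached by 86 chaperone peaks or 45.7%, against 39.1% of all peaks. A log ratio under -1 was listed for 7 chaperone peaks or 3.72%, against 7.43% of all peaks. Those 7 were 3 peaks of DNAJC5, 2 of HSPH1 and 1 each of DNAJA1 and CCT4. The interval treats the peaks of a gene as independent, which they are not. With the peak of the highest log average standing for each gene, 42 of 48 genes lay above 0 and 25 of 48 (52.1%) over 1, against 79.9% and 53.1% of all genes. Under -1 there was 1 gene, HSPH1 (2.08%), against 4.52%. The chaperone genes as a whole therefore lay near the shares of the whole table. Values differed between genes and also within them. Among the 23 genes with 3 or more peaks, the median range within a gene was 2.29, against 2.21 over all such genes. With 2 or more peaks it was 1.29, against 1.77, and with 5 or more 2.37, against 2.64.

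**Figure D1:**
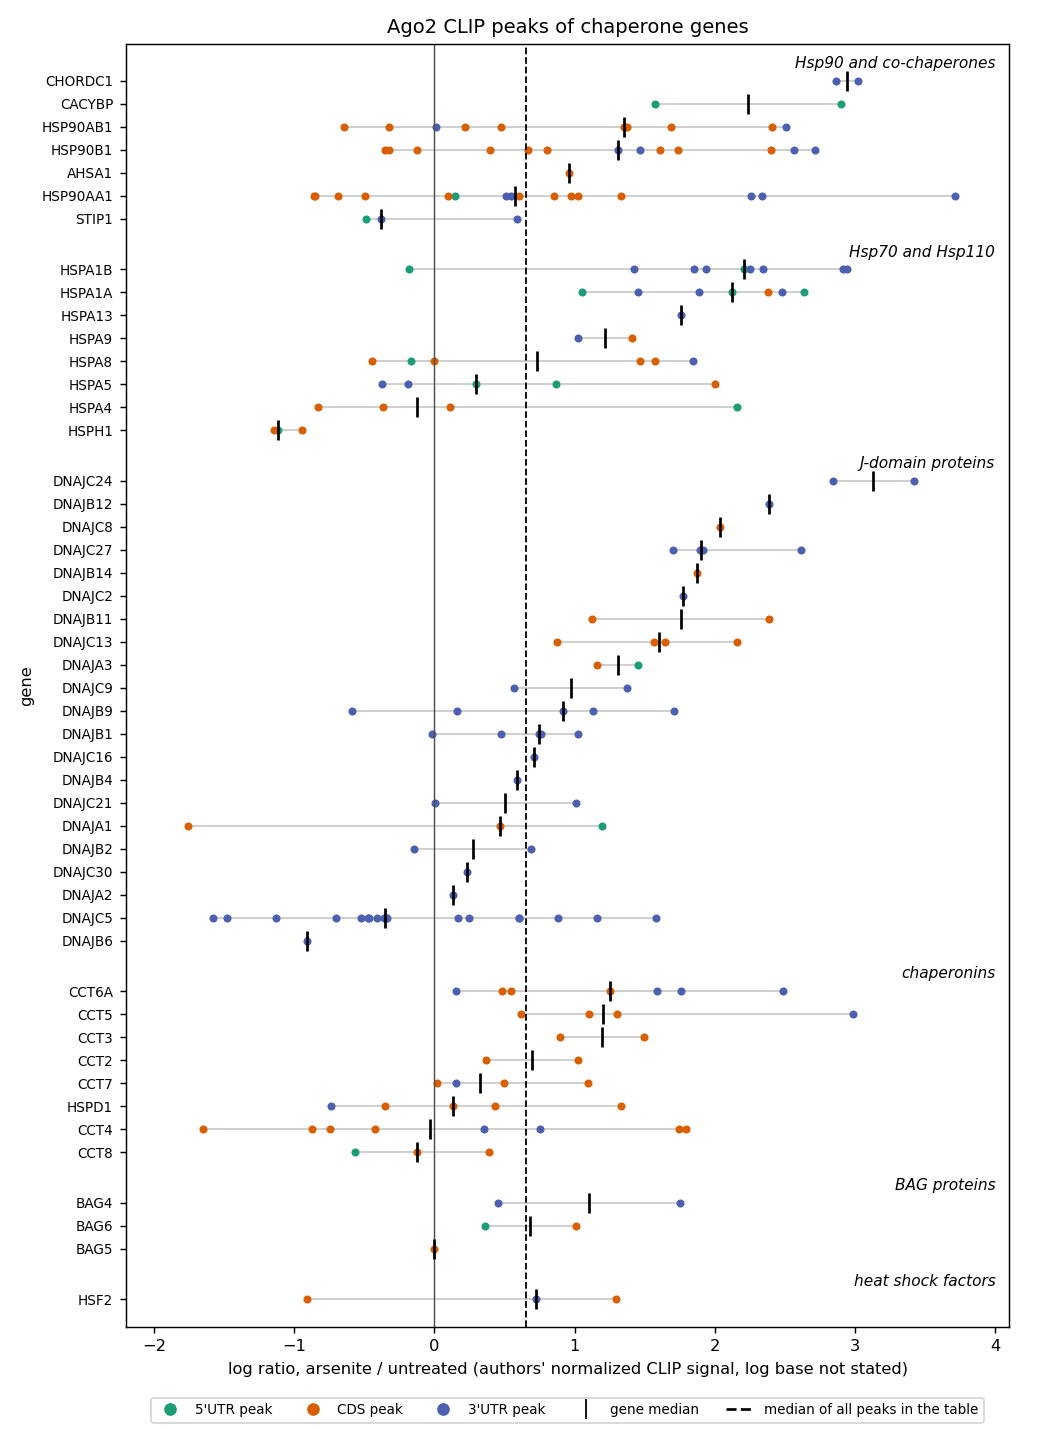
Log ratio of normalized Ago2 CLIP signal, arsenite over untreated, for each of the 188 peaks in 48 genes, grouped by role. Points are peaks coloured by transcript region, black ticks are gene medians and the dashed line is the median of all peaks in the table (0.65). HSPA1A, HSPA1B, CHORDC1 and DNAJC24 lie to the right, HSPH1 and DNAJB6 to the left, and DNAJC5 spreads over both sides of 0.

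The plot of peaks by gene shows how far single genes stood from each other. Of the 36 genes with 2 or more peaks, 18 had all of their peaks above 0, against 44.3% of the 3749 such genes in the table. In 8 of the 36 genes (22.2%) every peak was over 1, against 16.5% in the table: CACYBP, CHORDC1, DNAJA3, DNAJB11, DNAJC24, DNAJC27, HSPA1A and HSPA9. Peaks on both sides of 0 were found in 17 of the 36, or 47.2%, against 50.8%. In 1 gene, HSPH1, all peaks lay below 0, against 4.91% of the genes in the table. Among the 23 genes with 3 or more peaks, all were above 0 in 6, against 34% of such genes in the table, and all were over 1 in 2, against 8.75%. Peaks on both sides of 0 were found in 16 of the 23, or 69.6%, against 63.4%. Of the 12 genes with a single peak, 10 lay above 0 and 5 over 1, against 79.6% and 53.2% of the 2339 such genes in the table. Those below 0 were BAG5 and DNAJB6.

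Hsp70 genes differed widely from each other. HSPA1A and HSPA1B, the stress-inducible Hsp70 genes that heat shock factors switch on, had log ratios over 1 in 15 of their 16 peaks, where 39.1% of all peaks were over 1. The log ratios of the 7 peaks of HSPA1A ran from 1.05 to 2.64 with a median of 2.12. These peaks had log averages from -7.10 to -6.08. They comprised 3 in the 5′ untranslated region (UTR) with 2.12, 1.05 and 2.64, 1 in the coding sequence (CDS) with 2.38, and 3 in the 3′UTR with 1.46, 1.89 and 2.48. The 9 peaks of HSPA1B ran from -0.18 to 2.94 with a median of 2.21. Its first 5′UTR peak had -0.18 and the next had 2.21, and the 7 peaks that follow each other closely in its 3′UTR had 2.91, 1.42, 2.25, 2.94, 2.34, 1.94 and 1.85. The highest log average of the Hsp70 genes, -2.43, was that of a 3′UTR peak of HSPA1B at chr6:31797668-31797730 (build hg19), which matches the miR-15/16 seed. HSPA1A and HSPA1B are near-identical in their coding sequence, and how reads shared by both were counted is not given in the sources used here, so the split of signal between them is uncertain.

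The rest of this role had a lower median over peaks. Without HSPA1A and HSPA1B, already seen to be high, the 21 peaks of the other 6 genes of this role had a median of 0.11. Over 1 were 8 of them (38.1%), near the 39.1% of all peaks. With 1 peak per gene, that of the highest log average, the genes were less far apart. HSPA1A and HSPA1B had 1.89 and 1.42 there. HSPA13, HSPA4, HSPA5, HSPA8, HSPA9 and HSPH1 had 1.76, 0.11, 1.999, 1.57, 1.41 and -1.14. HSPA8, the constitutive cytosolic Hsp70 (Hsc70), had 3 of 6 peaks over 1 and 3 below 0, from -0.45 to 1.84, and 1.57 at its peak of the highest log average, a CDS peak at chr11:122930600-122930658. HSPA5, the Hsp70 of the endoplasmic reticulum (BiP), had 1.999 at its single CDS peak, 0.87 and 0.30 in the 5′UTR, and -0.19 and -0.37 in the 3′UTR. HSPA9, the mitochondrial Hsp70 (mortalin), had 1.41 in the CDS and 1.03 in the 3′UTR. HSPA13, a microsomal relative, had 1.76 at its only peak, which matches the miR-26 seed.

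HSPA4 and HSPH1 are Hsp110 genes, whose products recharge Hsp70 with ATP. HSPA4 had 2.16 at a 5′UTR peak and 0.11, -0.36 and -0.83 at its 3 CDS peaks. HSPH1 had -1.11 in the 5′UTR and -0.95 and -1.14 in the CDS. Its values gave the lowest gene median of the 48 genes, -1.11, and the smallest range of the 23 chaperone genes with 3 or more peaks, 0.20. All-negative peaks in genes with 3 or more peaks occurred in 2.59% of the 2584 such genes of the table.

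In HSP90AA1 and HSP90B1 the highest values lay in the 3′UTR. HSP90AA1, the inducible cytosolic Hsp90, had 5 peaks in its 3′UTR with 3.71, 0.55, 2.34, 0.51 and 2.26, and the first of these, at chr14:102547479-102547525, was the highest log ratio of all chaperone peaks. Its 10 CDS peaks ran from -0.86 to 1.33 with a median of 0.35, and its 5′UTR peak had 0.15. The 2 CDS peaks that match the miR-15/16 seed overlap each other just before the 3′UTR and had -0.49 and -0.69. The peak with -0.49 had the highest log average of this gene, -5.29. HSP90B1, the Hsp90 of the endoplasmic reticulum (GRP94), had 1.47, 1.31, 2.57 and 2.72 at its 4 overlapping 3′UTR peaks, all of them over 1, and a median of 0.67 over 9 CDS peaks. HSP90AB1, the constitutive cytosolic Hsp90, also had its highest value, 2.51, in the 3′UTR, but its other 3′UTR peak had 0.015 and its 9 CDS peaks a median of 1.35. Of the 40 peaks of these 3 genes 18 (45.0%) were over 1, against 39.1% of all peaks, and none was under -1, against 7.43%.

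The Hsp90 co-chaperones were few in peaks and far apart in value. CHORDC1, a co-chaperone with zinc-binding CHORD domains, had 2.87 and 3.02 at 2 3′UTR peaks that both match the miR-26 seed, the second at chr11:89935308-89935343. CACYBP, the ubiquitin ligase adaptor counted with them here, had 2.90 and 1.57 at 2 5′UTR peaks with no match. AHSA1, the activator of the Hsp90 ATPase, had 0.96 at a CDS peak. STIP1 (Hop), the adaptor that joins Hsp70 to Hsp90, had -0.49 in the 5′UTR and 0.59 and -0.38 in the 3′UTR.

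**Figure D2:**
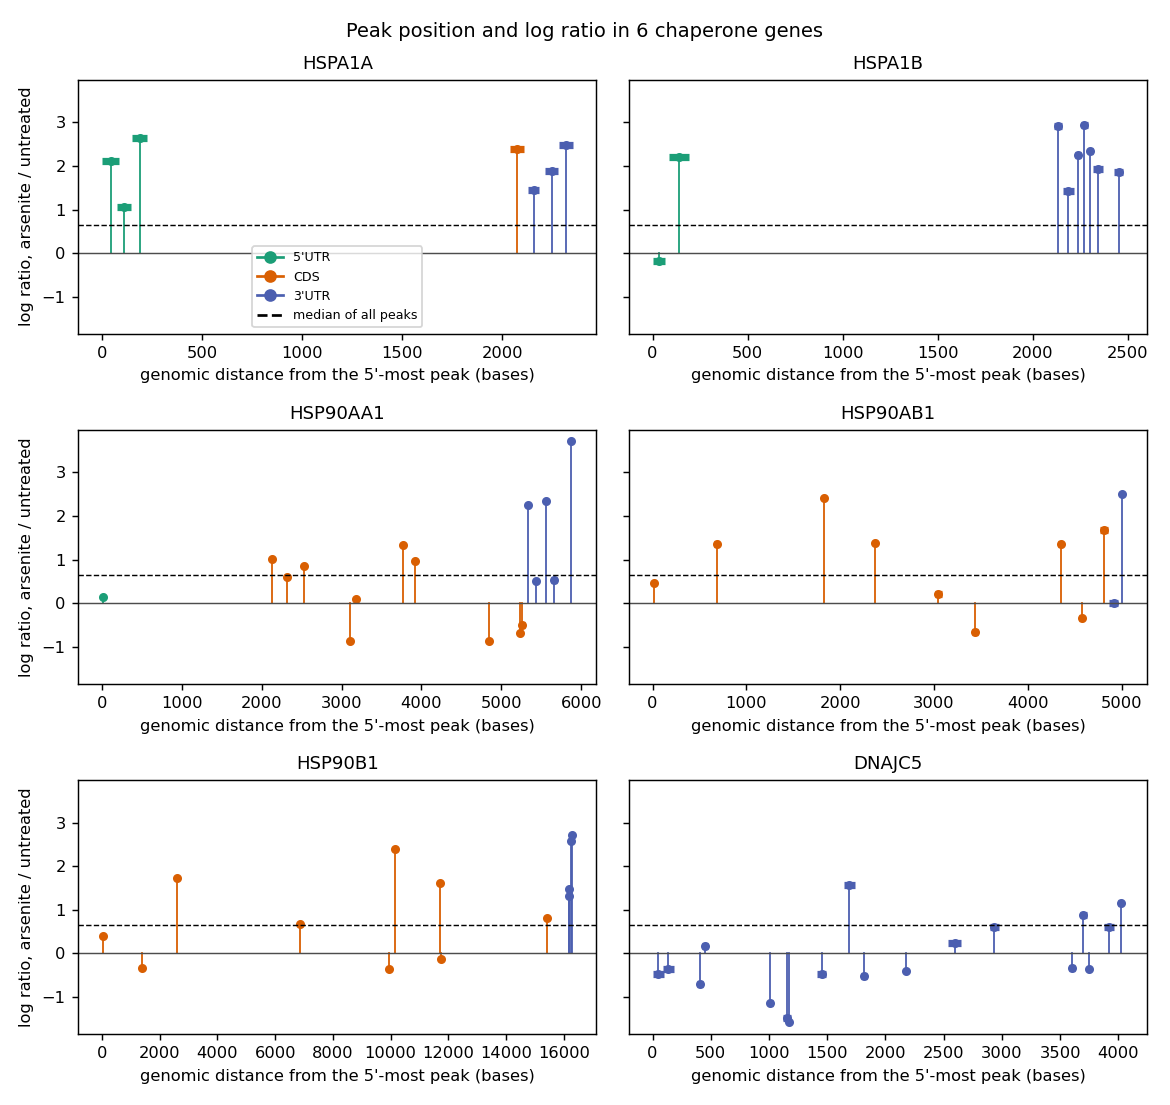
Log ratio of each peak against its genomic distance in bases from the 5′-most peak of the gene, for HSPA1A, HSPA1B, 3 Hsp90 genes and DNAJC5. Each panel has its own distance scale, colours mark transcript regions and the dashed line is the median of all peaks (0.65). All peaks of HSPA1A and all but the first of HSPA1B stand over 1, the highest peaks of HSP90AA1 (3.71) and HSP90B1 (2.72) are in the 3′UTR, and those of DNAJC5 fall on both sides of 0 along its 3′UTR.

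J-domain proteins, which bring clients to Hsp70 and start its ATP cycle, formed the largest role, with 60 peaks in 21 genes and a median of 0.73. Of these peaks, 25 (41.7%) were over 1 and 4 (6.67%) under -1, near the 39.1% and 7.43% of all peaks. DNAJC5 (cysteine string protein), which guards proteins of synaptic vesicles, held 18 of them, all in its 3′UTR, with a median of -0.35 and a range from -1.58 to 1.58. Only 7 of these 18 lay above 0, 2 were over 1 and 3 under -1. The 36 peaks of the 10 DNAJC genes together had a median of 0.66, with 69.4% above 0 and 41.7% over 1, near the 70.3% and 39.1% of all peaks. The other 18 DNAJC peaks, in 9 genes, had a median of 1.67 once DNAJC5, already seen to be low, was set aside.

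DNAJC24, which acts in diphthamide synthesis on the elongation factor eEF2, had the highest gene median, 3.13. Its 3′UTR peaks had 3.42 at chr11:31453414-31453461, with matches to the seeds of miR-15/16 and of the miR-301a family, and 2.84 at chr11:31453690-31453728, with a match to the miR-222-3p seed. DNAJC27, a small GTPase with a J domain, had 1.70, 1.89, 1.91 and 2.62 at 4 3′UTR peaks. Its peak at chr2:25166757-25166802 matches the miR-25/92 seed and had the highest log average of all chaperone peaks, -1.43. The peak with 2.62 matches the miR-17 seed. DNAJC13, an endosomal protein (RME-8), had 2.16, 1.64, 1.57 and 0.88 at 4 CDS peaks, the first with a miR-25/92 and a miR-338-3p match and the last 2 with a miR-17 match. Single peaks had 2.04 in DNAJC8, a spliceosome-associated protein, 1.78 in DNAJC2, which binds ribosomes, 0.71 in DNAJC16 and 0.23 in DNAJC30, a mitochondrial protein. DNAJC9, a histone chaperone, had 0.57 and 1.37, and DNAJC21, a factor of ribosome assembly, 0.0023 and 1.01.

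In the DNAJB class, 7 of 18 peaks (38.9%) were over 1, about the share of all peaks (39.1%), with a median of 0.75. DNAJB1, the stress-inducible Hsp40 partner of HSPA1A, had 5 peaks in its 3′UTR with 1.02, 0.74, -0.019, 0.76 and 0.48. All 5 lay below the lowest peak of HSPA1A, 1.05, and above the lowest peak of HSPA1B, -0.18. The highest values of this class were those of 3 genes of the endoplasmic reticulum. DNAJB12, a membrane-bound cofactor, had 2.39 at a 3′UTR peak with a miR-25/92 match (chr10:74092677-74092720), DNAJB14, its relative, 1.87, and DNAJB11 (ERdj3), a luminal cofactor of BiP, 2.39 and 1.12. DNAJB9 (ERdj4), a target gene of the unfolded protein response, had 1.13, 0.16, 0.91, -0.59 and 1.71 along its 3′UTR, and the peak with 1.71 matches the miR-25/92 seed. DNAJB2, a neuronal member, had 0.69 and -0.14, DNAJB4 had 0.59, and DNAJB6, a suppressor of polyglutamine aggregation, had -0.91 at its only peak.

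The DNAJA class had 6 peaks in 3 genes. DNAJA1, a cytosolic Hsp40, had the lowest log ratio of all chaperone peaks, -1.76, at a CDS peak at chr9:33030462-33030493, and 0.47 and 1.19 at its other peaks. The peak with -1.76 had a log average of -7.03, among the lowest 25% of all peaks. DNAJA2 had 0.14. The mitochondrial DNAJA3 (Tid1) had 1.45 in the 5′UTR and 1.16 in the CDS.

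Chaperonin mRNAs had the lowest median of the 4 roles with more than 5 peaks, 0.50 over 35 peaks in 8 genes, against 0.65 over all peaks. Over 1 were 13 of them (37.1%), near the 39.1% of all peaks. The naming rule took in 7 of the subunits of the cytosolic chaperonin CCT, whose 30 peaks had a median of 0.58. TCP1, the alpha subunit of CCT, falls outside the rule. It had a median of 0.71 over 10 peaks and is described with other genes below. Subunits of this complex, which is built from equal numbers of each, did not share a value. CCT6A, CCT5 and CCT3 had medians of 1.25, 1.203 and 1.196, CCT2 and CCT7 had 0.70 and 0.33, and CCT4 and CCT8 had -0.033 and -0.12. The 2 highest peaks of these 7 subunits carried seed matches: 2.98 in the 3′UTR of CCT5 (miR-222-3p, chr5:10264899-10264933) and 2.48 in that of CCT6A (miR-301a-3p). CCT4 alone ran from -1.65 to 1.80 over 8 peaks, so its median stands for none of them. At their peaks of the highest log average, CCT2, CCT3, CCT4 and CCT5 had 0.37, 1.495, 1.74 and 1.304. CCT6A, CCT7 and CCT8 had 1.76, 0.022 and -0.12 there. HSPD1 (Hsp60), the mitochondrial chaperonin, had -0.74, 1.33, 0.14, -0.35 and 0.43.

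BAG proteins, which include nucleotide exchange factors of Hsp70, had 5 peaks with a median of 0.45. BAG4 had 1.75 at a 3′UTR peak with a miR-26 match and 0.45 at one with a miR-125 match. BAG6, which guides tail-anchored proteins, had 0.36 in the 5′UTR and 1.01 in the CDS, and BAG5 had -0.0043. HSF2, the only heat shock factor with peaks, had -0.91 and 1.297 in the CDS and 0.72 in the 3′UTR.

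Position in the transcript was described next, since Ago2 sites that act through miRNAs lie mostly in 3′UTRs. The chaperone peaks comprised 89 in 3′UTRs (47.3%), 81 in CDS (43.1%) and 18 in 5′UTRs (9.57%), against 51.0%, 34.5% and 9.02% of all peaks. The median log ratio of 3′UTR peaks was 0.88 in chaperone genes, the same as over all 3′UTR peaks (0.88), and 48.3% were over 1, against 45.8%. That median moved with single genes: it was 1.37 over 71 peaks without DNAJC5, 0.71 over 79 without HSPA1A and HSPA1B, and 1.01 over 61 without all 3 genes. CDS peaks had a median of 0.67 in chaperone genes and 0.58 over the table, with 42.0% over 1, against 36.6%. The 18 5′UTR peaks had a median of 0.96, against 0.25 over all 2169 5′UTR peaks, and 9 of them were over 1, against 23.2%. Without the 5 peaks of HSPA1A and HSPA1B, however, the median of the other 13 was 0.36, and 5 (38.5%) were over 1.

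**Figure D3:**
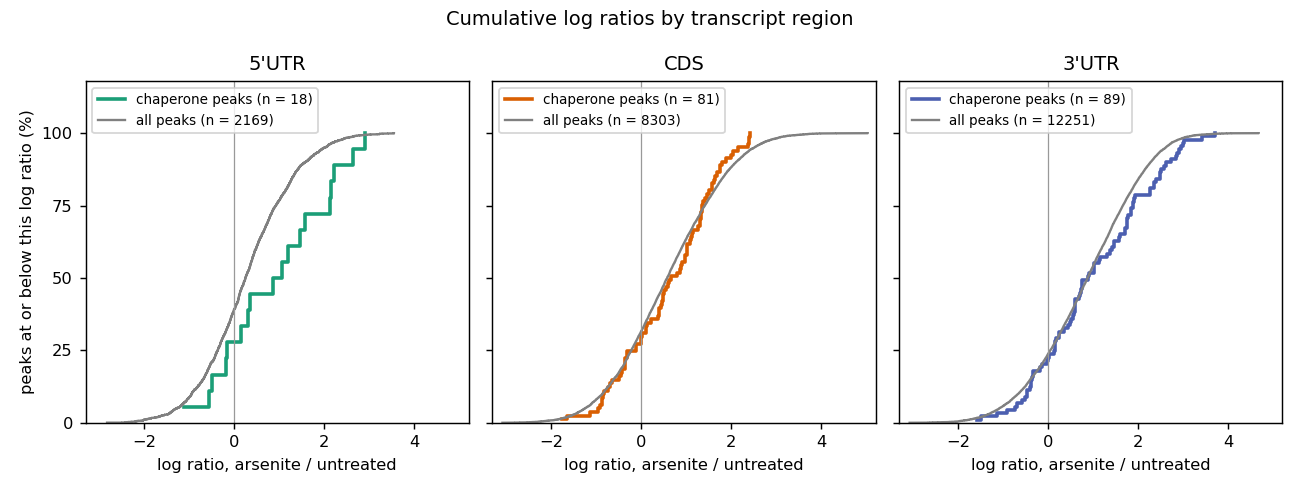
Cumulative share of peaks (%) against log ratio for chaperone peaks (coloured) and all peaks (grey), by transcript region. The chaperone curve runs to the right of the grey one in the 5′UTR (medians 0.96 and 0.25) and crosses it or lies close to it in the CDS and the lower part of the 3′UTR. Without HSPA1A and HSPA1B the median of the chaperone 5′UTR peaks was 0.36.

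Within single genes the order of regions was not uniform. Among the 13 chaperone genes with peaks in both regions, the 3′UTR median was above the CDS median in 7, with a median difference of 0.53. Over all 1862 such genes it was above in 60.2%, with a median difference of 0.26. HSP90AA1, CCT5, HSP90B1 and CCT4 had differences of 1.91, 1.88, 1.35 and 1.14. HSPA5 and HSPD1 had -2.28 and -1.02. In the 10 chaperone genes with peaks in both 5′UTR and CDS, the 5′UTR median was the higher in 3, with a median difference of -0.23. Over all 722 such genes it was the higher in 40.9%, with a median difference of -0.26.

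Chaperone peaks with a seed match had a higher median log ratio than those without. A match was listed for 53 chaperone peaks (28.2%) in 29 genes, against 31.5% of all peaks. The median log ratio was 1.41 with a match and 0.60 without, against 1.06 and 0.48 over the whole table. Among matching chaperone peaks 31 (58.5%) were over 1, against 51.7% of all matching peaks, and of the other 135 chaperone peaks 55 (40.7%) were over 1, against 33.3%. The difference between the medians, 0.80, was 0.84 within 3′UTRs and 0.27 when the lowest 25% of log averages in the table was left out. It was smaller inside genes: in the 20 genes with both kinds of peak the median with a match was above that without in 12, with a median difference of 0.16, against 63.5% of 2582 genes and 0.33 in the table. In CDS, 16.0% of chaperone peaks had a match, against 26.6% of all CDS peaks, whereas in 3′UTRs the shares were 42.7% and 38.5%.

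The families differed at chaperone sites. The miR-26 seed matched 4 peaks in CHORDC1, BAG4 and HSPA13, and all 4 were over 1, with 3.02, 2.87, 1.75 and 1.76, where 68.9% of the 177 peaks with this seed in the table were over 1. The miR-25/92 seed matched 6 peaks in 6 genes, all above 0 and 5 over 1, with a median of 1.82. Over all 430 peaks with this seed the median was 1.72, with 95.3% above 0 and 77.7% over 1, so the chaperone sites were near the rest. The 4 with the highest log averages had log ratios of 1.89 in DNAJC27, 2.39 in DNAJB12, 1.71 in DNAJB9 and 0.23 in DNAJC30. The peaks in CCT6A and DNAJC13 had 1.76 and 2.16. The miR-17 seed matched 4 peaks, 2 of them in DNAJC13, with a median of 1.22 against 1.67 over all 716 peaks with it, and the one in DNAJC5 had 0.17.

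The miR-15/16 seed had the most chaperone peaks, 8 in 6 genes, and the widest spread. They ran from -0.69 in HSP90AA1 to 3.42 in DNAJC24, with a median of 0.72 against 0.92 over all 994 peaks with this seed. The peaks in HSPA1B, at chr6:31797668-31797730 and chr6:31797731-31797763, adjoin each other and had 1.42 and 2.25, and those in DNAJC9, HSPA5 and DNAJC5 had 0.57, 0.87 and 0.25. The miR-338-3p seed matched 4 peaks, with 2.16 in DNAJC13, 1.58 in DNAJC5, 1.47 in HSPA8 and -0.74 in CCT4. Over all 166 peaks with this seed the median was 0.64, and 36.7% were over 1. The seeds of miR-222-3p and miR-301a-3p matched 2 chaperone peaks each, in DNAJC24 and in CCT5 or CCT6A. All of these were over 1, as were 64.0% and 70.02% of all peaks with these seeds. Families with so few peaks are given as values only.

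**Figure D4:**
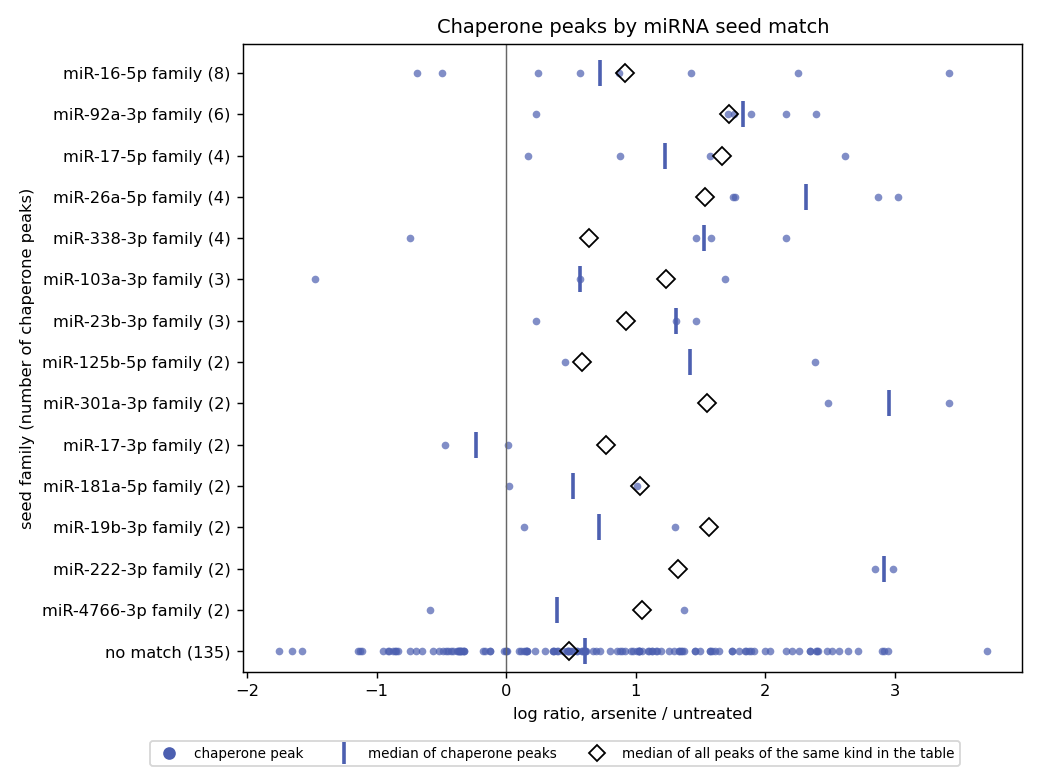
Log ratio of chaperone peaks with a match to each seed family that has 2 or more of them, named by its most abundant member, and of the 135 chaperone peaks with no match. Points are peaks, ticks their medians and open diamonds the medians of all peaks of the same kind in the table. All 4 miR-26 peaks lie over 1, and the miR-15/16 peaks (miR-16-5p) spread from -0.69 to 3.42.

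Amounts of the miRNAs themselves in the LO band libraries were compared between arsenite-treated and untreated cells. By the authors' own test none of the miRNAs named here had an adjusted p under 0.05: 0% of the 1213 entries of the authors' deposited table did, and 1.98% had an unadjusted p under 0.05. A p that misses the threshold does not show that their amounts were equal. For miR-26a-5p the authors' deposited table gave means of 329631 with arsenite and 307729 untreated, a log2 fold change of 0.10 (the authors' DESeq p = 0.634, adjusted p = 1). The log2 fold change was 0.17 for miR-92a-3p, -0.018 for miR-17-5p, 0.022 for miR-16-5p and 0.059 for miR-338-3p in the authors' deposited table. For miR-301a-3p and miR-222-3p that table, the authors' deposited table of miRNAs, gave 0.30 and -0.023.

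Other genes of the folding machinery were described from a list of 41 chaperonin, prefoldin, Hsp90, endoplasmic reticulum, mitochondrial and ubiquitin genes outside the families above. Of these, 28 had 144 peaks with a median log ratio of 0.93, and 121 of them (84.0%) lay above 0, against 70.3% of all peaks. Over 1 were 68 (47.2%), against 39.1%, and under -1 were 2 (1.39%), against 7.43%. At the peak of the highest log average 17 of the 28 genes (60.7%) were over 1, against 53.1% of all genes. PTGES3 (p23), the Hsp90 co-chaperone that stabilises its closed form, had 3.49 and 2.64. TCP1, the alpha subunit of CCT, had 3.71 at its peak of the highest log average but a median of 0.71 over 10 peaks. UBB, a polyubiquitin gene that heat shock induces, had all 4 of its peaks over 1, with a median of 1.68. VCP, an unfolding ATPase, had 4 peaks between 0.10 and 0.31, and PPP5C, a phosphatase bound to Hsp90, a median of -0.31 over 3 peaks.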

How the data were processed

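Peaks and miRNAs were read from the authors' 2 deposited tables. Tools of the authors, per the submitters' processing notes, were Bowtie 0.12.8, TopHat and DESeq, with build hg19 and no roles given. The peak caller and CLIP normalizer were not given in the sources used here. Per the file headers, each peak has a log ratio and a log average of its normalized CLIP abundance, with no log base. The miRNA means are signal values that the authors averaged after DESeq scaling, per the file headers, and the fold (ratio), its log2 value and the p-values are also the authors' deposited ones. There were 0 columns of per-sample values, so no count model, limma fit or replicate-based alternative was run. Coordinates are as deposited, on hg19; the numbering of starts, from 0 or from 1, is unknown.

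Peaks were described by medians, shares above 0 and shares past 1 or -1, beside the same over all peaks, with Python 3.11.15, pandas 2.3.3 and scipy 1.17.1. The functions were checked on simulated data. Members and lists were chosen with earlier results of these data known, and the subsets within roles (HSPA1A with HSPA1B, DNAJC without DNAJC5, compartments) were formed after their values were seen. Genes were named by role: the peak of the highest log average of each gene (12 J-domain genes), the 8 highest and 8 lowest log ratios, the genes with most peaks, and up to 4 peaks in each of the 5 seed families with most peaks. Other genes of each role and 2 further families are named outside that rule. Values of some genes of the lists are not reported here.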

Additional observations from a re-analysis of the deposited data

How the results depend on the processing

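The intervals used to judge a move treat peaks as independent, and for BAG proteins and HSF2 they span all of the values, so staying inside them says nothing about stability there. The median log ratio of chaperone peaks, 0.83, was 1.15 with 1 peak per gene, where all genes had 1.10, and 0.17 after subtracting the median of all peaks. The share above 0, 74.5%, was 87.5% with 1 peak per gene, 83.3% with gene medians and 54.3% after subtraction. Shares over 1 and under -1 were 25.5% and 19.1% after subtraction, 60.1% and 11.7% at a threshold of 0.5, and 16.0% and 0% at 2. After subtraction the medians of chaperonins and BAG proteins were -0.15 and -0.20, which follows from medians of 0.50 and 0.45 lying under the 0.65 of all peaks and tests nothing about these genes. The seed match difference in medians, 0.80, lay between 0.27 and 0.84. Leaving out HSPA1A and HSPA1B gave a median of 0.68 and leaving out DNAJC5 gave 0.97. The choice of HSPA1A and HSPA1B and of the genes left out of the 3′UTR median was made after seeing the data. No paired analysis was possible because the tables hold no values of single samples, and leaving out replicates was not run for the same reason. Small heat shock proteins had no peak, and no HSF2 peak was left in the upper 75% of log averages.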

Other observations

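Sorted by compartment, a grouping formed after the values had been seen, the 7 genes of the endoplasmic reticulum (HSPA5, HSP90B1, HSPA13, DNAJB9, DNAJB11, DNAJB12 and DNAJB14) had 28 peaks with a median log ratio of 1.13. Of these, 15 (53.6%) were over 1, against 39.1% of all peaks, and none was under -1, against 7.43%. HSP90B1 alone held 13 of the 28 peaks and 7 of the 15 over 1. All of its peaks were among the lowest 25% of log averages. The 4 mitochondrial genes (HSPD1, HSPA9, DNAJA3 and DNAJC30) had 10 peaks with a median of 0.73, against 0.65 over all peaks. Over 1 were 5 of the 10 (50%), against 39.1%. HSPD1 held 5 of these peaks, with 1 over 1.

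The log ratio of chaperone peaks varied with the log average. The 25% of peaks with the highest log averages included 22 chaperone peaks of 11 genes, 4 of them in HSPA1B, with a median of 1.71, against 0.53 over all peaks of that range. Of these 22, 68.2% were over 1, against 35.8%. Those over 1 included all 4 of the HSPA1B peaks and all 4 peaks of DNAJC27. The next 25% below held chaperone peaks with a median of 0.59, against 0.66 over all peaks, and the 25% below that 0.48, against 0.83. The lowest 25%, with 86 of the 188 chaperone peaks, had a median of 0.94 in chaperone genes, against 0.59 over all peaks.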
